A study of Mus musculus with 19 samples.

Results

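Cardiomyocytes (CMCs) burn long-chain fatty acids for most of their energy once the heart has matured, and 34 genes of fatty acid uptake and beta-oxidation were examined here for 5-hydroxymethylcytosine (5-hmC), an oxidised form of 5-methylcytosine made by the TET enzymes. The 34 genes were taken by name from 6 functional groups, out of 21000 protein-coding genes of the curated RefSeq annotation. The rule itself uses no measured value, but the genes were chosen with earlier results of these data known. The data were peak lists of hydroxymethylated DNA immunoprecipitation followed by sequencing, a method in which an antibody enriches DNA fragments that carry 5-hmC. CMCs of male mice were compared at 4 points with 2 replicates each. The study names the strain, C57BL/6J, in its account of the operation. E14.5 CMCs came from embryos and neonatal CMCs from pups of 1 to 2 days, both by digestion of ventricles. Adult CMCs came from mice of 2 months by perfusion of the left ventricle. TAC CMCs came from adult mice 1 week after transverse aortic constriction, an operation that overloads the left ventricle with pressure. The labels do not say whether the Adult mice had a sham operation. The way of isolating the cells and the part of the heart named differed between the early and the later points. Between the early and the later points, age, isolation and part of the heart therefore cannot be told apart.

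Fatty acids enter the CMC through transporters such as CD36, are bound by FABP3 and are activated to acyl-CoA. In the mitochondrion, 4 reactions run in a spiral that shortens the chain by one acetyl-CoA at each turn, and electrons pass through the electron transfer flavoprotein to the respiratory chain. 5-hmC is known to lie over the bodies of genes that a differentiated cell uses, whereas start sites of active genes usually carry little of it.

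The measure used throughout is coverage, the percent of a gene's span, from its first to its last annotated base, that lies under a peak. The 34 spans ran from 5.25 to 107 kb, and 13892 protein-coding genes with spans in that range served as the background. The lists held 104215 to 153637 peaks, and the mean coverage of the background genes ran from 4.31% to 9.51%. The read depth of each list was not used here, and the study's text gives only lower bounds for each condition. The second TAC list stood apart: it shared 5.69% of the covered bases with the first TAC list, whereas the replicates of the other points shared 20.3% to 24.7%. Only 8.23% of its peak centres with a centre of the first TAC list within 2 kb had it within 200 bp, against 41.6% for the first TAC list set against the first adult list. Results on TAC are therefore also given without it. The second E14.5 and the second neonatal list shared 39.8%, and the first E14.5 and the first neonatal list 25.8%. Both shares exceeded those of the replicates of either point, 21.6% (E14.5) and 24.7% (neonatal). The adult replicates shared 20.3%, less than the second adult list with the second neonatal list (22.0%) or the first TAC list (20.8%).

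CMC identity was checked on the sarcomere and calcium-handling genes fixed as markers. Their mean coverage was 25.2% ± 0.537 (SD, n = 2) at E14.5 and 14.97% ± 3.55 in adult CMCs, above the 5.46% and 7.68% of genes of their length classes. Of these 10 markers, 9 had lower coverage in both adult than in both neonatal samples, beside 15.9% of the background genes. Fibroblast markers had a mean of at most 2.37% at any point, endothelial markers 9.52% at E14.5 and 6.80% in adult CMCs, and adipocyte markers 4.82% and 5.33%. The endothelial markers were also above genes of their length classes at E14.5, with a ratio of 1.7 ± 0.0707 (SD, n = 2). In adult CMCs that ratio was 0.943 ± 0.0813. The fibroblast and adipocyte means were below those of their length classes at each point. The part of other cells in the results was not tested.

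Stretches of 6 members that were covered in both adult samples and in no E14.5 sample are shown first. The stretches were picked by that rule, and their share of each gene's difference was not computed. These members are the 6 genes with the largest difference between E14.5 and adult among those whose samples did not overlap. Each window is the middle 200 bases of the widest such stretch, on the plus strand of mm10, with CpG dinucleotides, the usual site of 5-hmC, in capitals.
Acadvl, chr11:70011558-70011757: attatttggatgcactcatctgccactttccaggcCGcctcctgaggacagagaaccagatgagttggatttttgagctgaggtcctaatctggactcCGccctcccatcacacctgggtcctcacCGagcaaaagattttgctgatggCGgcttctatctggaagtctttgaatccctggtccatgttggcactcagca
Pnpla2, chr7:141458827-141459026: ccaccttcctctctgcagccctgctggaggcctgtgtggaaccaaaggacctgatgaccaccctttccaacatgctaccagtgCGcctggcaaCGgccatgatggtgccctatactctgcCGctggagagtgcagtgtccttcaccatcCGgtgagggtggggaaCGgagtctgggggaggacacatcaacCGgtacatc
Acacb, chr5:114189511-114189710: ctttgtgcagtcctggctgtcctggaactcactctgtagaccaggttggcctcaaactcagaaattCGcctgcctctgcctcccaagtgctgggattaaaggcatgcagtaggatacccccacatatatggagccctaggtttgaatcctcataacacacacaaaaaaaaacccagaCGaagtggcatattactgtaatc
Acadm, chr3:153929637-153929836: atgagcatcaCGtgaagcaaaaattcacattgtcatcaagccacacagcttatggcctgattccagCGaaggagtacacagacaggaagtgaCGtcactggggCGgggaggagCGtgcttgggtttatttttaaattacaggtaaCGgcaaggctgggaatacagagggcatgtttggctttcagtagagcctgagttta
Mlycd, chr8:119397943-119398142: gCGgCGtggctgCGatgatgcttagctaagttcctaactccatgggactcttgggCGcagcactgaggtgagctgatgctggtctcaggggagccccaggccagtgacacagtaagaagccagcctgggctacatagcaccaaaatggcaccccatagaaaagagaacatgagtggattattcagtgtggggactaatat
Plin5, chr17:56112553-56112752: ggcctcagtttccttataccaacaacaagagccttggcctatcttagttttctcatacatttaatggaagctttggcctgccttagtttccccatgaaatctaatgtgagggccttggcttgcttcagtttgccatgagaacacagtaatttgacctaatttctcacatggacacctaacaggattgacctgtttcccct

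The Acadvl and Pnpla2 windows span coding exons and introns, with 115 and 133 exonic bases, and the other 4 are intronic. Their middles lay between 3.15 kb (Mlycd) and 24.1 kb (Acacb) downstream of the nearest start site. CpGs numbered 6 in the Pnpla2 and Acadm windows, 4 in those of Acadvl and Mlycd, 2 in that of Acacb and 0 in that of Plin5. In the Acacb window, 76.0% of the bases are marked as repeat in the reference. The stretches from which the windows were taken ran from 501 bases (Plin5), the median peak width, to 3311 bases (Acacb). Both neonatal lists also had a peak in the Pnpla2 and Mlycd windows. The second neonatal list had a peak in the Acadvl window, and the first in the Acadm window.

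Averaged over the 34 genes, coverage was 10.7% and 7.06% in the E14.5 samples, 18.2% and 23.1% in the neonatal samples, 20.5% and 26.3% in the adult samples and 17.5% and 9.82% in the TAC samples. The E14.5 samples lay below all neonatal and adult samples, and the neonatal and adult samples overlapped. Protein-coding genes of the same length classes averaged 5.46% ± 0.386 at E14.5, then 7.24% ± 0.887 (neonatal) and 7.90% ± 1.71 (adult), with 5.35% ± 1.84 after TAC (SD, n = 2). The ratio of the 34 genes to their length classes was 1.61 ± 0.354 at E14.5, then 2.84 ± 0.120 (neonatal) and 2.98 ± 0.120 (adult), with 2.52 ± 0.148 after TAC. By the same measure the background genes had ratios of 1.04 (E14.5) to 1.06 (adult and TAC), since these classes also hold genes outside the span range. No test was made on these means, since the genes were chosen with earlier results of these data known.

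**Figure D1:**
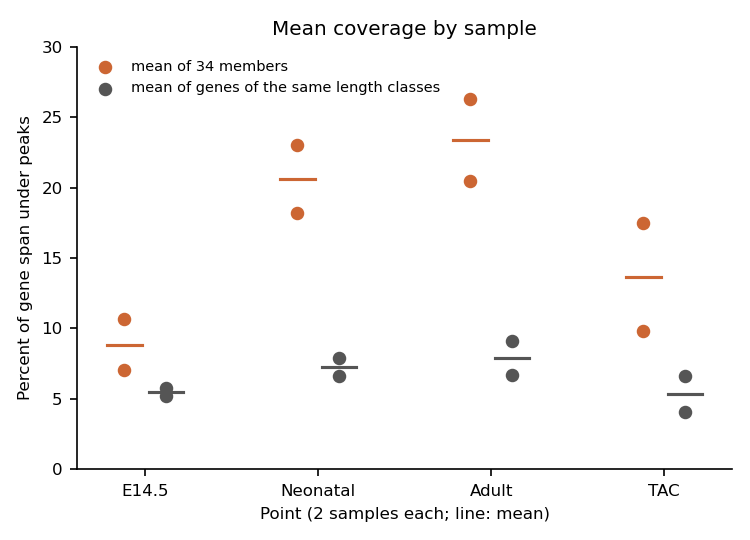
Mean percent of the gene span under 5-hmC peaks (y axis) at the 4 points (x axis). Each point is 1 sample and each line the mean of 2 samples, for the 34 fatty acid genes and for all protein-coding genes of the same length classes. The E14.5 samples of the 34 genes, at 10.7% and 7.06%, lie below every neonatal and adult sample.

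**Figure D2:**
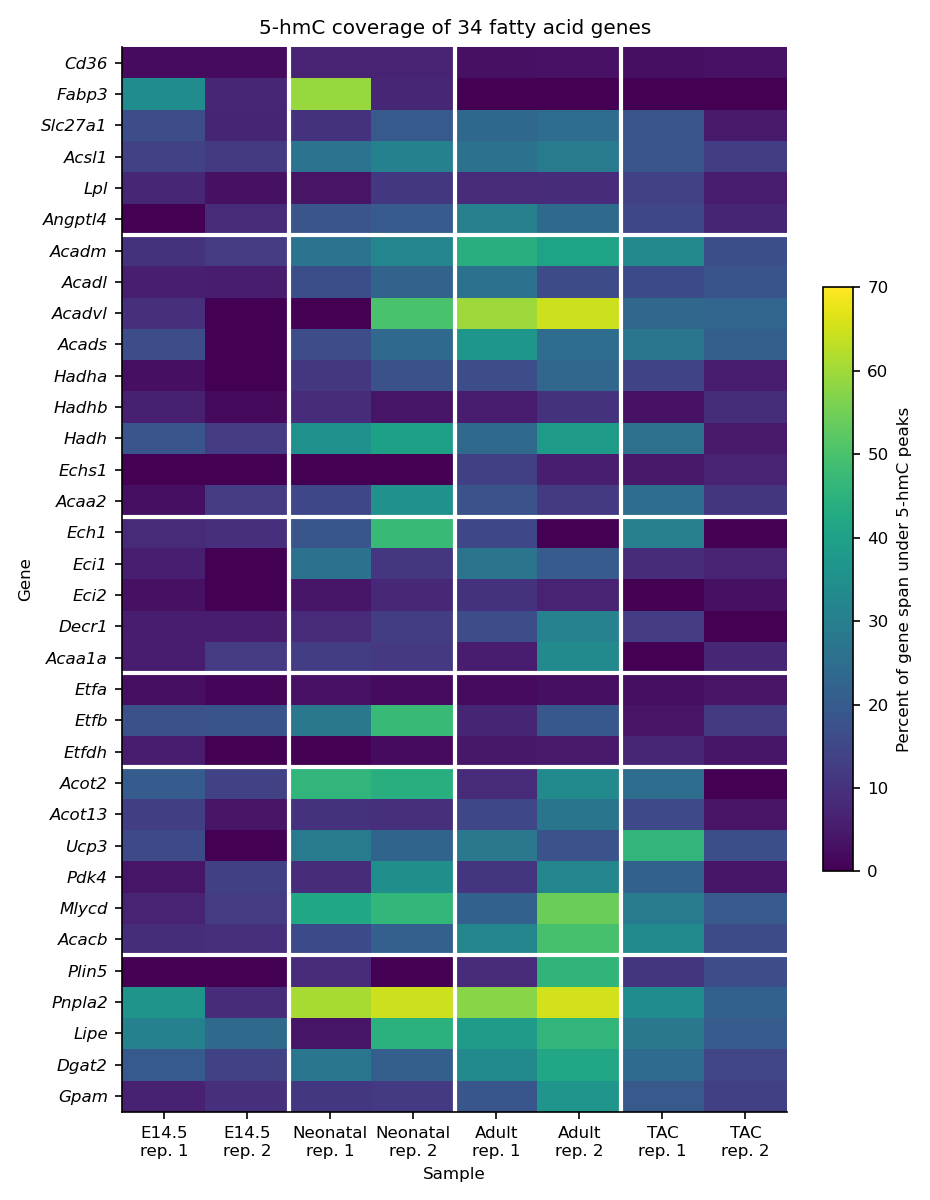
Percent of each gene's span under peaks (colour scale) for the 34 genes (rows, white lines between functional groups) in the 8 samples (columns). Acadvl and Pnpla2 reach the highest values, in neonatal and adult samples, and Fabp3 runs the other way.

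For a single gene, limma on the arcsine square root of the covered share, with Benjamini-Hochberg adjustment over 12783 genes with a peak, called 0 of the 34 genes in any of the 4 comparisons or over the 4 points. Across all genes it called 1, between neonatal and adult. The lowest adjusted p of a member in limma was that of Echs1, 0.126 between E14.5 and adult and 0.183 over the 4 points. At an unadjusted p under 0.05, limma put 17 of the 34 genes between E14.5 and adult beside 15.5% of all genes, 9 between E14.5 and neonatal beside 5.90%, 6 between neonatal and adult beside 8.89%, and 4 between adult and TAC beside 7.16%. Over the 4 points it put 13 beside 10.9% of all genes. The exact permutation test over the 105 divisions of the 8 samples into pairs put 4 of the 34 genes at an unadjusted p under 0.05, beside 6.59% of all genes, with a lowest adjusted p of 0.653. An exact permutation test of 2 samples against 2 cannot go below p = 0.333, so single genes are described below by whether both samples of one point lay beyond both of the other.

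Between E14.5 and adult, 24 of the 34 genes (70.6%) had higher coverage in both adult samples than in both E14.5 samples, beside 26.8% of the background genes, and 1 had lower coverage, beside 12.9%. Between E14.5 and neonatal CMCs, 20 genes were higher, beside 22.8% of the background, and 0 were lower, beside 5.47%. Between neonatal and adult CMCs, 12 genes were higher, beside 15.5%, and 5 were lower, beside 15.9%, so that the lower share of 14.7% was near the background. Without the first adult sample these counts were 19 and 8, beside 34.7% and 22.0%. The lower count was 10 without the first neonatal sample, beside 33.0%, and 10 without the second adult sample, beside 30.7%. Between adult and TAC CMCs, 12 genes were lower, beside 21.3%, and 0 were higher, beside 4.86%. When each sample was scaled to the same mean coverage, the E14.5 to adult counts were 17 higher and 2 lower, beside 18% and 23.9% of the background.

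**Figure D3:**
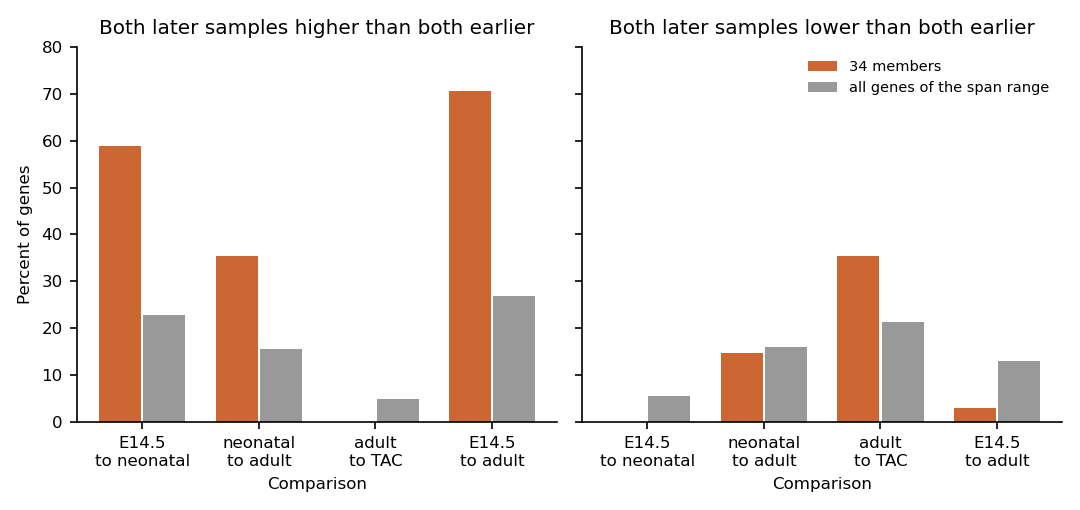
Percent of genes (y axis, from 0) whose 2 later samples were both higher (left) or both lower (right) than the 2 earlier samples, in 4 comparisons (x axis), for the 34 genes and for the 13892 background genes. The widest gap is between E14.5 and adult, at 70.6% against 26.8%.

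Among the 9 enzymes of the mitochondrial spiral, 7 had higher coverage in adult than in E14.5 CMCs without overlap, beside 26.8% of the background. Acadm encodes the medium-chain acyl-CoA dehydrogenase (chr3:153922353-153944643, minus strand). Its coverage was 10.2% and 12.5% at E14.5, then 26.8% and 32.1% (neonatal) and 44.1% and 40.7% (adult), with 33.0% and 16.8% after TAC. The 3 developmental points did not overlap, and both TAC samples lay below both adult samples. In its length class Acadm stood at percentile 86.6 at E14.5 and 99.0 in adult CMCs. Acadvl encodes the very-long-chain dehydrogenase that opens the spiral on the inner membrane (chr11:70010183-70015428, minus strand). Its coverage was 9.55% and 0% at E14.5, then 0% and 49.9% (neonatal) and 59.8% and 64.8% (adult), with 23.0% and 22.8% after TAC. The neonatal replicates spanned the range from the E14.5 to near the adult values, and the adult samples lay above all others. Acads, the short-chain dehydrogenase, had 16.6% and 0% at E14.5 and 36.8% and 24.9% in adult CMCs. Acadl, the long-chain dehydrogenase, had 5.88% and 5.63% at E14.5 and 26.02% and 16.1% in adult CMCs.

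The later steps of the spiral were more varied. Hadha, the alpha subunit of the trifunctional protein, had 2.82% and 0% at E14.5, then 11.1% and 17.4% (neonatal) and 16.6% and 23.2% (adult), with 14.3% and 5.64% after TAC. Hadhb, its beta subunit, whose gene is the neighbour on the other strand, had 6.08% and 1.71% at E14.5 and 5.55% and 10.2% in adult CMCs, which overlapped. Echs1, the short-chain enoyl-CoA hydratase, had no peak base in the 4 E14.5 and neonatal samples, then 13.3% and 5.87% in adult CMCs, with 4.68% and 6.88% after TAC. Hadh had 18.6% and 12.2% at E14.5 and 24.1% and 38.2% in adult CMCs. Acaa2, the thiolase, was higher in neonatal than in E14.5 CMCs, but its E14.5 values of 2.71% and 12.3% overlapped the adult values of 18.02% and 11.9%.

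Of the 6 genes of uptake and activation, 5 were higher in adult than in E14.5 CMCs without overlap, beside 26.8% of the background. The remaining gene, 1 of the 6, was lower, beside 12.9%. Between neonatal and adult CMCs, 2 were higher, beside 15.5%, and 2 lower, beside 15.9%. Acsl1, which makes acyl-CoA, had 13.5% and 12.03% at E14.5, then 26.6% and 30.7% (neonatal) and 26.4% and 28.5% (adult), with 18.4% and 12.7% after TAC. Angptl4, a secreted inhibitor of lipoprotein lipase, had 0% and 8.51% at E14.5, then 18.5% and 19.98% (neonatal) and 30.5% and 24.1% (adult), with 15.01% and 7.25% after TAC. Slc27a1, a fatty acid transport protein, had 16.4% and 7.19% at E14.5 and 23.3% and 25.0% in adult CMCs. Lpl, the lipase itself, reached only 8.75% and 8.84% in adult CMCs, above 7.44% and 3.09% at E14.5.

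Cd36 had its highest values in neonatal CMCs, and Fabp3 had none after them. Cd36, the longest of the 34 genes, had 2.05% and 2.10% at E14.5, then 6.76% and 6.79% (neonatal) and 3.13% and 3.32% (adult), with 2.94% and 3.41% after TAC. The neonatal samples lay above all others, and at percentile 48.1 in adult CMCs the gene was near the middle of its length class. Fabp3, the heart fatty acid binding protein, had 34.1% and 7.45% at E14.5 and 59.2% and 7.45% in neonatal CMCs, while each of the 4 adult and TAC samples had 0%. It was the 1 gene of the 34 with lower coverage in adult than in E14.5 CMCs, and its early replicates differed widely. Its span overlaps the annotated gene Zcchc17, so a peak there cannot be given to one gene alone, as holds for Etfdh with Ppid and for Lipe with 4732471J01Rik. A stretch of each gene that both neonatal lists covered is shown, chosen for Fabp3 as absent from the adult and TAC lists and for Cd36 as absent from the E14.5 lists. The Fabp3 window is intronic, 0.552 kb from the start site, and the Cd36 window holds 150 exonic bases, of which 60 are coding, 6.96 kb from the nearest start site.
Fabp3, chr4:130309191-130309390: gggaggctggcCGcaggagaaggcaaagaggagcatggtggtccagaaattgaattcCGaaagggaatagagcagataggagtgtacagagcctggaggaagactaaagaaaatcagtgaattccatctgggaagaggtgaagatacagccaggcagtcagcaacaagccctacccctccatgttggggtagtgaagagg
Cd36, chr5:17828835-17829034: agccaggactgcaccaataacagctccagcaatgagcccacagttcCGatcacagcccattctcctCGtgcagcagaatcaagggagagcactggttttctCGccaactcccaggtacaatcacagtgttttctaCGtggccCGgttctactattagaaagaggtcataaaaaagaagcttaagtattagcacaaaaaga

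All 5 genes of lipid storage and release had higher coverage in adult than in E14.5 CMCs without overlap, beside 26.8% of the background. Pnpla2, the lipase that starts the breakdown of stored triglyceride (chr7:141455188-141460743, plus strand), had 36.1% and 9.02% at E14.5, then 60.9% and 64.7% (neonatal) and 57.5% and 65.2% (adult), with 34.1% and 21.7% after TAC. Both TAC samples lay below the 4 neonatal and adult samples. Plin5, which ties lipid droplets to mitochondria, had 0% in both E14.5 samples and 8.42% and 45.9% in adult CMCs, with a wide gap between the adult replicates. Dgat2, which makes triglyceride, had 19.9% and 13.6% at E14.5 and 33.2% and 42.1% in adult CMCs. Gpam, the first enzyme of glycerolipid synthesis, had 6.45% and 9.66% against 18.7% and 36.6%. Lipe, hormone-sensitive lipase, had 30.8% and 24.3% at E14.5, then 3.88% and 44.7% (neonatal) and 38.4% and 46.2% (adult), with one neonatal sample below all others.

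Among the thioesterases, brakes and switches, Acacb encodes the acetyl-CoA carboxylase whose product malonyl-CoA blocks fatty acid entry into mitochondria, and Mlycd the decarboxylase that removes malonyl-CoA. Acacb had 9.06% and 9.51% at E14.5, then 15.7% and 21.5% (neonatal) and 32.2% and 49.6% (adult), with 33.6% and 16.2% after TAC. The 3 developmental points did not overlap. Mlycd had 6.84% and 12.1% at E14.5, then 41.7% and 46.3% (neonatal) and 21.8% and 54.4% (adult), with 28.7% and 19.6% after TAC. Both genes of this opposed pair were higher in neonatal and adult than in E14.5 CMCs. Ucp3, a mitochondrial carrier, had 15.5% and 0% at E14.5, then 27.7% and 17.9% (adult), with 46.1% and 16.9% after TAC. Acot2, a mitochondrial thioesterase, was highest in neonatal CMCs, at 45.9% and 44.3%, against 8.33% and 33.6% in adult CMCs. Acot13 had 13.04% and 3.70% at E14.5 and 14.8% and 27.1% in adult CMCs. Pdk4, which turns glucose oxidation down, had 3.88% and 13.3% at E14.5 and 10.7% and 32.1% in adult CMCs, which overlapped.

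The auxiliary enzymes for unsaturated chains and peroxisomes split. Decr1, the dienoyl-CoA reductase, had 5.34% in both E14.5 samples, then 8.29% and 12.6% (neonatal) and 16.6% and 31.1% (adult), with 12.1% and 0% after TAC. Eci1 and Eci2, enoyl-CoA isomerases, were higher in adult than in E14.5 CMCs, at 27.0% and 19.97% against 5.98% and 0% for Eci1 and 10.4% and 6.78% against 3.06% and 0% for Eci2. Ech1 had 8.51% and 9.49% at E14.5, then 18.8% and 47.2% (neonatal) and 15.2% and 0% (adult), with 30.5% and 0% after TAC, and Acaa1a overlapped between E14.5 and adult. Of the 3 electron transfer flavoprotein genes, 0 were higher in adult than in E14.5 CMCs without overlap, beside 26.8% of the background. Etfb had 17.2% and 18.2% at E14.5, then 28.0% and 47.4% (neonatal) and 7.30% and 19.1% (adult). Etfa stayed between 1.09% and 3.69% in the 8 samples, and Etfdh between 0% and 7.44%.

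Coverage was not spread evenly along the genes, whose spans were cut into 10 deciles of equal length from the start. In adult CMCs, the first decile of the 34 spans was covered to 6.71% ± 0.891 beside 6.78% ± 0.863 in the length classes, whereas the last 5 deciles were covered to 29.1% ± 7.85 against 8.54% ± 2.24 (SD, n = 2). In neonatal CMCs the first decile was at 17.8% ± 0.990 against 7.21% ± 0.714, and the last 5 deciles at 17.7% ± 4.15 against 7.24% ± 0.981. At E14.5 the last 5 deciles were at 7.67% ± 1.21 against 5.43% ± 0.421. The adult excess ran on past the gene end, with 19.0% ± 3.33 in the 10 kb downstream against 6.68% ± 1.64. In TAC CMCs the first decile was at 2.90% ± 1.61 against 5.18% ± 0.948, and the last 5 deciles at 17.9% ± 6.49 against 5.59% ± 2.15. In the first TAC list alone these were 1.76% against 5.85% and 22.5% against 7.11%. The neonatal and adult samples did not overlap in the first decile, which was not tested.

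**Figure D4:**
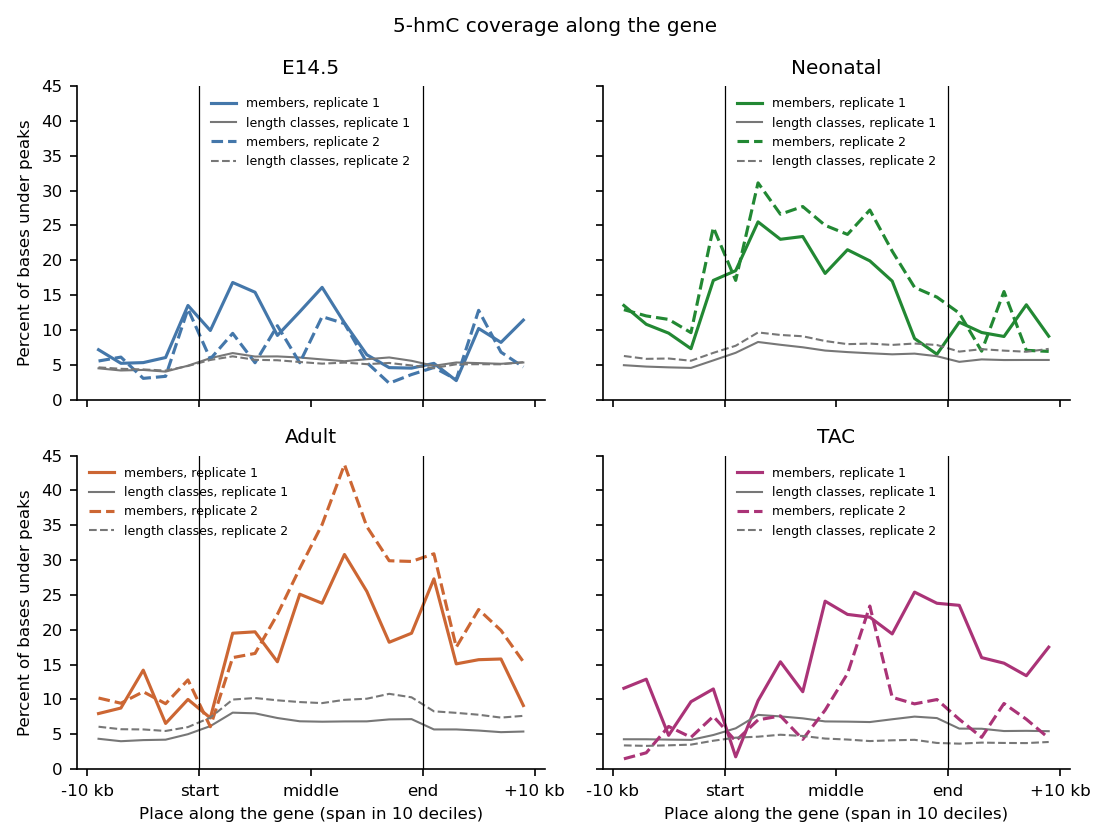
Percent of bases under peaks (y axis) along the gene in the direction of transcription (x axis: 10 kb upstream in steps of 2 kb, the span in 10 deciles, 10 kb downstream), for the 34 genes (colour) and their length classes (grey), 1 line a replicate. In adult CMCs the lines are near the grey ones at the start of the span. In its later deciles they reach 30.8% in the first replicate and 43.7% in the second.

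Start regions were bases within 1 kb of a start site and inside the span, so bases upstream of the span were not counted. In these regions, 10 and 8 of the 34 genes had a peak base at E14.5. The counts were then 13 and 15 (neonatal) and 8 and 7 (adult), with 2 and 4 after TAC. Among background genes this share ran from 13.8% to 18.2%. Exon bases outside these start regions were covered to 9.21% and 5.28% at E14.5, then 12.7% and 23.1% (neonatal) and 31.1% and 45.2% (adult), with 32.8% and 13.2% after TAC. Intron bases were covered to 17.9% and 23.4% in adult CMCs. For background genes, the adult values were 8.99% and 12.8% in exons and 6.60% and 8.46% in introns.

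Stretches under peaks in both adult samples totalled 97.7 kb on the 34 genes, and 74.5% of these bases lay under no E14.5 peak, against 51.3% over the background genes. Of the neonatal shared bases, 24.7% were also shared in adult CMCs, against 28.0% over the background.

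The lower TAC values were uneven between the TAC lists, whose means over the 34 genes were 17.5% and 9.82%. Set against both adult samples, the first TAC list alone had 18 genes lower, beside 27.5% of the background, and 5 higher, beside 17.8%. The second alone had 24 lower, beside 40.3%, and 2 higher, beside 15.2%. Without the first adult sample, 23 genes were lower in TAC, beside 44.3%. Between same-numbered samples, 19 genes were lower and 14 higher in the first pair, beside 38.5% and 36.3% of the background, and 28 were lower and 4 higher in the second, beside 57.5% and 20.7%. With every sample scaled to the same mean coverage, 10 genes were lower and 3 higher, beside 11.0% and 14.0%. The 12 genes lower in both TAC samples were Slc27a1, Acsl1, Angptl4, Acadm, Acadvl, Hadha, Eci1, Eci2, Decr1, Pnpla2, Lipe and Dgat2.

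Other fatty acid genes and glycolysis were set beside the 34 genes, with no test between the lists. Of 59 other genes of fatty acid metabolism, 27 (45.8%) were higher and 7 (11.9%) lower in adult than in E14.5 CMCs, beside 26.8% and 12.9% of the background genes. Of 28 genes of glycolysis and glucose uptake, 13 (46.4%) were higher and 5 (17.9%) lower. The mean coverage of the glycolytic genes was 12.9% ± 5.38 at E14.5 and 20.3% ± 0.834 in adult CMCs, and that of the other fatty acid genes 5.61% ± 1.53 and 11.4% ± 2.55 (SD, n = 2). Within the glycolytic list, Slc2a4, the insulin-responsive glucose transporter, had 10.8% and 16.9% at E14.5 and 48.9% and 54.5% in adult CMCs, and Slc2a1, the transporter of the fetal heart, had 24.9% and 22.6% at E14.5 against 21.7% and 15.4%.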

How the data were processed

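5-hmC was measured by hMeDIP sequencing in CMCs at 4 points with 2 replicates each. Reads were aligned by the authors with BWA 0.7.4-r385 to mm10, duplicates were handled with Picard, and peaks were called per replicate against input with HOMER, per the submitters' processing notes and the study's methods. The deposited lists hold peak positions (other values) and a score that is 1 in each row, per the file headers and values; tag counts named in the headers are not used here. Per the headers, control tags were normalised to the IP in some lists and IP tags to the control in others (both TAC lists and the second neonatal and adult ones), which can alter how many peaks are called. The read depth of each list was not used, so no interval was computed.

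Coverage was computed from merged peaks over curated RefSeq spans on GRCm38 with Python 3.11.15, numpy 2.4.6 and pandas 2.3.3. Length classes were bounded at 10, 20, 40 and 80 kb. They held all protein-coding genes for means, ratios and percentiles, and only the background genes for the profile along the gene. limma 3.58.1 (R 4.3.3) was fitted to the arcsine square root of the share over 12783 genes, all 8 samples together, and was tested on simulated data. The 34 genes, by role, and the other lists were chosen with earlier results of these data known. All 34 had a peak base in at least 1 list. The limma p-values weigh differences against the spread between the 2 samples of a point, pooled over the 4 points and moderated over 12783 genes. Same-numbered samples were not treated as paired: correlations of their differences ran from -0.0416 to 0.223, the highest between E14.5 and neonatal. Input, knockdown and RNA libraries were not used here. The profile along the gene and the comparison of same-numbered samples were added after seeing the data. Sequence windows were read from GRCm38. Alternatives were another number of peaks, scaling, 10 kb flanks, spans without 1 kb around start sites, peak centres, a difference of at least 1 percentage point, other scales and filters, a replicate block and leaving out each sample.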

Additional observations from a re-analysis of the deposited data

How the results depend on the processing

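limma called 0 of the 34 genes under each alternative (the replicate block, for which 0 genes were called, leaving out each sample, and the exact permutation test over 105 divisions of the samples into pairs included), except with no filter on genes without peaks, where 1 gene, Cd36, was called from E14.5 to neonatal, from neonatal to adult and over the 4 points; that fit holds 13892 genes, and the cause was not tested. Counting peak centres gave 13 genes higher from E14.5 to neonatal (14.0% of background genes), 6 higher from neonatal to adult (10.6%), and 3 higher (4.28%) and 4 lower (12.8%) from adult to TAC, where the lower share is near the background. From adult to TAC, 1 gene was higher with the same number of peaks (5.87%) and 3 with scaled coverage (14.0%). From E14.5 to adult, 2 genes were lower with the same number of peaks (8.72%), 2 with scaled coverage (23.9%) and 0 with 10 kb flanks (16.6%). Leaving out 1 sample, which by construction makes overlap rarer, gave 22 to 26 genes higher (33.1% to 42.4% of background genes) and 0 to 2 lower (10.4% to 17.9%) from E14.5 to neonatal, 15 to 19 (21.4% to 34.7%) and 7 to 10 (22.0% to 33.0%) from neonatal to adult, 0 to 5 (9.11% to 17.8%) and 15 to 24 (27.5% to 44.3%) from adult to TAC, and 26 to 29 (33.2% to 44.2%) and 1 to 3 (17.4% to 24.0%) from E14.5 to adult. The neonatal mean was 16.0% with the same number of peaks, 15.2% with 10 kb flanks and 17.2% as a median over genes, and the adult mean 19.0% with 10 kb flanks. Without 1 sample, the means ran from 7.06% to 10.7% at E14.5, 18.2% to 23.1% in neonatal, 20.5% to 26.3% in adult and 9.82% to 17.5% in TAC CMCs. The read depth of each list was not used, and depth limits what a peak missing from a list can show.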
